A study of Mus musculus with 2 samples.

Results

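The genes described here encode channels through which chondrocytes are thought to sense load and osmotic change. They are the stretch-gated channels *Piezo1* and *Piezo2*, the osmotically sensitive channel *Trpv4*, the water channel *Aqp1*, the polycystins *Pkd1* and *Pkd2*, the gap junction gene *Gja1*, the pannexins *Panx1* and *Panx3*, and the L-type calcium channel gene *Cacna1c*. These 10 genes were chosen by name, and all 10 were found among the 23628 genes listed. RNA-sequencing was performed on 2 libraries of 1 condition, *Sox9* GFPHi chondrospheres, named here replicate 1 and replicate 2. Chondrospheres are colonies that grew from single femoral head cells of *Sox9* IRES-EGFP reporter mice at postnatal day 7, in which GFP reports *Sox9*. Live cells with high GFP and without the lineage markers CD31, Ter119 and CD45 were sorted and cultured in methylcellulose under low oxygen, in serum with FGF2, BMP4, IGF1, LIF and TGF-β1. The labels name no load and no osmotic stimulus, and they do not say whether the libraries came from different pups.

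Cartilage is compressed during movement, and water leaves and enters the matrix with each cycle, so that chondrocytes are stretched and exposed to changing osmolarity. PIEZO channels open when the membrane is stretched, and TRPV4 opens on hypo-osmotic swelling and moderate deformation. Both admit calcium, while connexin and pannexin pores release ATP that acts on purinergic receptors. Polycystin-1 and polycystin-2 form a complex known from the primary cilium, and aquaporins let water cross the membrane.

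Values are CPM, the reads of a gene relative to all reads on genes after scaling every library to 1 fixed total, and the steps between low values imply that 1 CPM stood for 43.3 reads in the first library and 42.2 in the second. The floor was set at 3 reads, which is 0.0693 and 0.0712 CPM, and accounts for the error of counting alone. All 9 chondrocyte markers were at 1 CPM or more in both libraries, among them *Sox9* at 265.3 ± 18.9 CPM (SD, n = 2), although *Matn1* was at 902.1 CPM in the first library and 29.2 CPM in the second. Markers of endothelial cells, erythroid cells and adipocytes did not reach 1 CPM in either library, and 4 of 6, 2 of 6 and all 3 listed, respectively, were at 0 in both. No marker of muscle reached 1 CPM, and of the 6 leukocyte and osteoclast markers *Acp5* did so in replicate 1, at 6.07 CPM. Of the 6 fibroblast markers, 3 were at 1 CPM or more in both libraries, which were *Col1a2* (2714 and 2620 CPM), *Dcn* (878.6 and 267.4 CPM) and *Pdgfra* (2.03 and 2.71 CPM). Of 6 neuronal and Schwann markers, 2 were among the genes listed, which is too few for a check. In bulk libraries such as these, fewer cells that express a gene and less RNA per cell cannot be told apart. With 1 condition no test between groups was possible, and no p-values were computed.

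The channel genes formed a high and a low set in the *Sox9* GFPHi chondrospheres. *Pkd1*, *Trpv4*, *Piezo1*, *Gja1* and *Pkd2* were each at 100 CPM or more in both libraries, a level reached by 880 (3.72%) of all genes listed. *Piezo2*, *Panx1*, *Panx3*, *Aqp1* and *Cacna1c* were each below 10 CPM in both. A level of at least 1 CPM in both libraries was found for 7 of the 10 genes, against 50.3% of all genes. The 10 genes summed to 1111 and 1523 CPM, of which the high set held 99.2% and 98.8%. Levels of different genes were compared after dividing CPM by the exonic length of the gene. On this scale the lowest value in the high set was 11.0 CPM per kilobase, for *Gja1* in replicate 1, and the highest in the low set was 0.801, for *Panx3* in replicate 2. The gap between the sets was therefore present in each library.

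**Figure D1:**
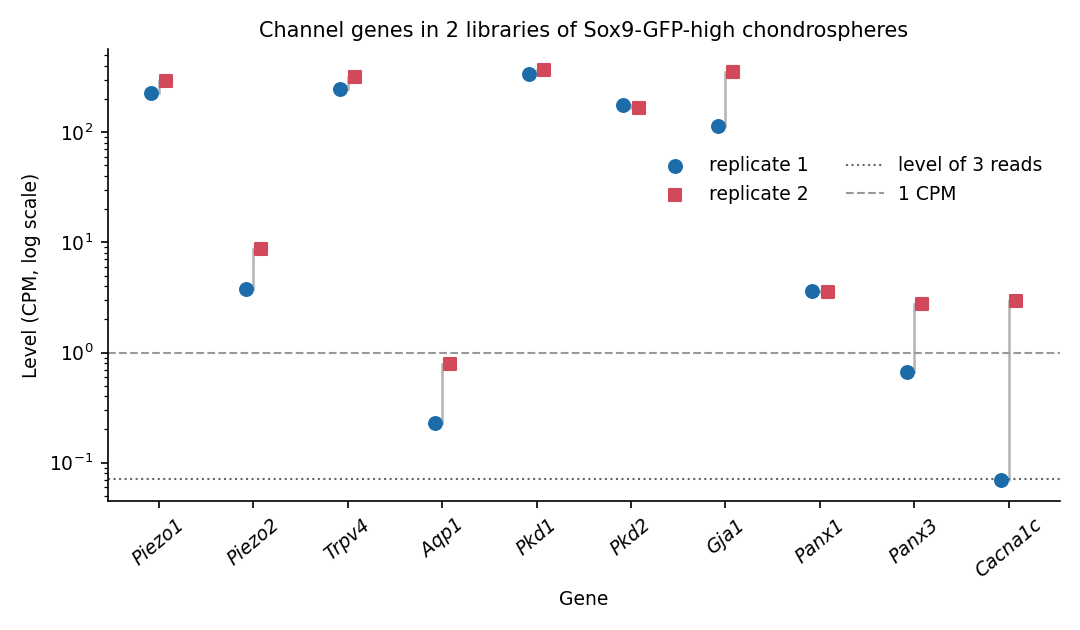
Level of each channel gene in CPM (log axis) in replicate 1 (blue circles) and replicate 2 (red squares), joined by a grey line, with the levels of 3 reads (dotted) and 1 CPM (dashed). *Piezo1*, *Trpv4*, *Pkd1*, *Pkd2* and *Gja1* lie between 113.1 and 370.0 CPM, and *Cacna1c* in replicate 1 lies at the level of 3 reads.

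Per kilobase of exon, *Trpv4* was the highest of the 10 genes at 70.0 ± 12.5 CPM per kilobase (SD, n = 2). It was followed by *Piezo1* at 26.3 ± 4.79, *Gja1* at 22.7 ± 16.5, *Pkd1* at 20.3 ± 1.34 and *Pkd2* at 16.8 ± 0.65 CPM per kilobase. *Trpv4* exceeded *Piezo1* by a log2 ratio of 1.41 in both libraries. *Gja1* could not be placed against its neighbours, as it was below *Piezo1* and *Pkd1* in replicate 1 and above both in replicate 2. *Pkd2* exceeded *Panx1*, the first gene of the low set, by a log2 ratio of 4.78 ± 0.02 (SD, n = 2). *Panx1* and *Panx3*, and *Panx3* and *Piezo2*, did not differ beyond the spread between libraries. *Cacna1c* was the lowest gene in both libraries. When length was taken from the longest coding transcript, *Trpv4* was again highest by mean at 88.3 ± 15.7 CPM per kilobase, but *Gja1* at 73.1 ± 53.1 moved to the second place and exceeded *Trpv4* in replicate 2. The high and low sets stayed apart with this length, the lowest value in the high set being 23.8 and the highest in the low set 1.09 CPM per kilobase.

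The sequences before the starts of 3 genes of the high set are printed because *Trpv4* and *Piezo1* kept a fixed ratio between the libraries whereas *Gja1* did not. Each is the stretch of 250 bases upstream of a transcript start in RefSeq (GRCm38.p6), 5′ to 3′ on the strand of the gene. The stretches are chr5:114658422-114658671 for *Trpv4* (minus strand), chr8:122551330-122551579 for *Piezo1* (minus strand) and chr10:56377050-56377299 for *Gja1* (plus strand), whose RefSeq start lies upstream of the GENCODE start. Capitals mark matches on either strand to motifs of general promoters, which were the box spelled TATAAA and the GC-rich box spelled GGGCGG, or to motifs of transcription factors. The latter were spelled TGANTCA for the AP-1 family, ACAATG for the SOX family, TGGAAA for the NFAT family and GGAATG for the TEAD family.
Trpv4: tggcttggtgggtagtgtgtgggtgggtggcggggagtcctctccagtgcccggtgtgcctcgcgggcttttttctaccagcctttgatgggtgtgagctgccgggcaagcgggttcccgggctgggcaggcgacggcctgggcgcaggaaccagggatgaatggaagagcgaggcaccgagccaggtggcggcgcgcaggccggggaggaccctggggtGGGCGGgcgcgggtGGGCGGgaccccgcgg
Piezo1: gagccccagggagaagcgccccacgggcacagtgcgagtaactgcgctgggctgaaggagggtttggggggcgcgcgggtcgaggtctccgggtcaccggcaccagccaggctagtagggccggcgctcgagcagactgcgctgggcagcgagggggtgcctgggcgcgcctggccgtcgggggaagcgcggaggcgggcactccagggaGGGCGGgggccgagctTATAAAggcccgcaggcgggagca
Gja1: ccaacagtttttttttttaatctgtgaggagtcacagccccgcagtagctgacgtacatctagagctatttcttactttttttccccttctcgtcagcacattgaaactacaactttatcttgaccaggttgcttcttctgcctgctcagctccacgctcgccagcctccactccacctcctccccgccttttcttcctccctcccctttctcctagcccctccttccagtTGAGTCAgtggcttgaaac

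*Trpv4* held 2 matches to GGGCGG, and *Piezo1* held 1 match to GGGCGG and 1 to TATAAA, the latter starting 24 bases before the start. *Gja1* held a single match to TGANTCA, starting 19 bases before the start, and none to the other motifs. In the rest of the high set, *Pkd1* held 4 matches to GGGCGG, and *Pkd2* held 1 to GGAATG and none to the other motifs. *Pkd2* had 175.7 and 166.3 CPM in replicates 1 and 2. The 3 printed stretches were chosen by the ratios between the libraries, so their motifs cannot be set against those ratios as a test. Among all 32851 stretches of this length in the table, GGGCGG was found in 32.7%, TATAAA in 12.4%, TGANTCA in 6.75%, ACAATG in 10.7%, TGGAAA in 18.6% and GGAATG in 12.6%. A stretch was available for 8 of the 10 genes. In the high set, CpG pairs numbered 26 in *Piezo1*, 22 in *Trpv4*, 16 in *Pkd1*, 6 in *Gja1* and 4 in *Pkd2*. In the low set they numbered 17 in *Panx1* and 5 in *Aqp1*, and 2, 48 and 5 in the 3 stretches of *Cacna1c*, so the sets overlapped. The median of all stretches was 6. These matches describe letters only and were not tested as binding sites. Any part of them in the spread between the libraries was not tested either.

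Of the stretch-gated channels, *Piezo1* was high and *Piezo2* low. *Piezo1* (ENSMUSG00000014444, chromosome 8 of GRCm38 from 122481698 to 122551329, 51 exons in its longest coding transcript) had 227.9 and 295.2 CPM in replicates 1 and 2, and ranked 333 by mean among all genes. *Piezo2*, best known as the touch channel of sensory neurons, had 3.81 and 8.68 CPM, or about 165 and 366 reads. Per kilobase, *Piezo1* exceeded *Piezo2* 100.7-fold in replicate 1 and 58.1-fold in the second library, giving a mean log2 ratio of 6.26 ± 0.56 (SD, n = 2). The exons of *Piezo1* share 2441 bases with *Ctu2* on the opposite strand. *Ctu2* was measured at 2.27 ± 0.0764 CPM per kilobase (SD, n = 2), below *Piezo1* in both libraries, and whether reads were counted by strand is not given in the sources used here. *Mdfic* and *Mdfi* encode related proteins that bind PIEZO channels as auxiliary subunits. *Mdfic* had 24.6 and 30.5 CPM, and *Mdfi* had 65.8 and 99.0 CPM. *Stoml3*, a stomatin-like gene that sensitises PIEZO channels in sensory neurons, was listed at 0 in both libraries.

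Of the genes that respond to or carry water, *Trpv4* was high and *Aqp1* was below 1 CPM. *Trpv4* (ENSMUSG00000014158, chromosome 5 from 114622152 to 114658421, 16 exons) had 249.2 and 321.1 CPM and ranked 299. *Aqp1* (ENSMUSG00000004655, chromosome 6 from 55336432 to 55348555, 4 exons), a water channel also abundant in endothelium and red cells, had 0.231 and 0.783 CPM, about 10 and 33 reads. The *Aqp1* values lay above the level of 3 reads but below 1 CPM in both libraries. The 6 endothelial markers summed to 0.37 and 0.261 CPM with *Cdh5*, *Kdr*, *Emcn* and *Tie1* at 0 in both libraries, and the 6 erythroid markers to 0.093 and 0.12 CPM. The endothelial sum was thus above *Aqp1* in the first library and below it in the second, and the part of these cells in the *Aqp1* level was not tested. *Aqp5* was the highest listed aquaporin per kilobase and the only one at 1 CPM or more in both libraries, with 3.88 and 2.54 CPM. *Aqp3* and *Aqp8* were listed at 0 in both.

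Both polycystin genes were high. *Pkd1* (ENSMUSG00000032855, chromosome 17 from 24549834 to 24596508, 46 exons), which encodes the large receptor-like partner, had 336.9 and 370.0 CPM. *Pkd2* (ENSMUSG00000034462, chromosome 5 from 104459450 to 104505819, 15 exons), which encodes the channel subunit, had 175.7 and 166.3 CPM. Per kilobase of exon, *Pkd1* exceeded *Pkd2* 1.12-fold in replicate 1 and 1.30-fold in the second library, giving a mean log2 ratio of 0.27 ± 0.15 (SD, n = 2). The order was not settled, because lengths of the longest coding transcripts gave a mean log2 ratio of -0.39. *Pkd1* shares 693 exonic bases with *Tsc2* on the opposite strand, which was measured at 57.2 ± 9.81 CPM (SD, n = 2). *Pkd2l2* was the only other polycystin gene at 1 CPM or more in both libraries, at 3.57 and 3.15 CPM.

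Of the genes for gap junctions and large pores, *Gja1* was high and both pannexins were low. *Gja1* (ENSMUSG00000050953, chromosome 10 from 56377330 to 56402513, 2 exons) encodes Cx43, which joins neighbouring cells and also forms hemichannels. Its level was 113.1 CPM in the first library against 351.9 CPM in the second, a 3.11-fold difference. *Panx1* (ENSMUSG00000031934, chromosome 9 from 15002128 to 15045478, 5 exons), which releases ATP in many tissues, had 3.65 and 3.53 CPM. *Panx3* (ENSMUSG00000011118, chromosome 9 from 37659902 to 37669235, 4 exons), known from prehypertrophic chondrocytes and osteoblasts, had 0.67 and 2.75 CPM. *Panx1* thus differed by little between the libraries, whereas *Panx3* was below 1 CPM in the first. Per kilobase, and with the pseudocount of 0.1 CPM added to each gene, *Gja1* exceeded *Panx3* 49.2-fold in replicate 1 and 41.3-fold in replicate 2. The log2 ratio of *Panx3* to *Panx1* was -1.47 in replicate 1 and 0.46 in replicate 2, so the 2 libraries differed in which pannexin was higher. *Panx2*, the third pannexin, had 5.08 and 2.99 CPM and was highest of the 3 by mean per kilobase.

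*Cacna1c* (ENSMUSG00000051331, chromosome 6 from 118587240 to 119196418, 47 exons), which encodes the pore of the voltage-gated channel known as the target of dihydropyridines, had 0.0693 and 2.92 CPM. These values correspond to 3 and 123 reads, a ratio of 42.1. If the values are taken as whole, independent reads, the 95% exact interval of this ratio is 14.1 to 206.9, which covers counting error only and not the spread between libraries. Replicate 1 alone would place the gene at the floor. *Cacna1d*, which encodes the pore of a related L-type channel, had 0.781 and 3.69 CPM and was the highest of the 9 listed alpha1 genes by mean per kilobase. This place rests on replicate 2, since *Cacna1h*, *Cacna1a* and *Cacna1b* exceeded it per kilobase in replicate 1. *Cacna1a* was the only alpha1 gene at 1 CPM or more in both libraries, at 1.04 and 1.07 CPM. The auxiliary subunit *Cacna2d1* stood well above these pores, at 32.1 and 70.6 CPM, or 4.13 CPM per kilobase by mean against 0.177 for *Cacna1d*.

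Within their families, *Trpv4*, *Gja1* and the pair of *Pkd1* and *Pkd2* held most of the summed level in both libraries. *Trpv4* held 76.4% of the CPM per kilobase of 20 listed TRP channel genes in replicate 1 and 80.4% in replicate 2. Within this list, *Trpm7*, a channel with a kinase domain, followed at a mean of 8.41 CPM per kilobase, and *Mcoln1*, a lysosomal channel, at 6.78. The list leaves out the polycystins, which were counted as their own family, although *Pkd2* is also a channel of the TRP family. *Pkd2* stood above *Trpm7*, at a mean of 16.8 CPM per kilobase, so the share of *Trpv4* would be smaller with it. The other genes of the TRP list at 1 CPM or more in both libraries were *Trpm4* at 13.1 ± 0.742 CPM, *Trpm6* at 9.06 ± 3.36 CPM, *Trpc1* at 5.52 ± 2.35 CPM and *Trpv6* at 1.67 ± 0.184 CPM (SD, n = 2 each). *Pkd1* held 53.7 ± 2.73% and *Pkd2* 44.6 ± 2.40% of the 7 listed polycystin genes (SD, n = 2 each). *Gja1* held 75.8% of the 12 listed connexin genes in replicate 1 and 65.3% in replicate 2. *Panx1* held 27.4% and 26.4% of the 3 pannexin genes and *Panx3* 8.82% and 36.1%, so that the pair held 36.2% in replicate 1 and 62.6% in replicate 2. *Aqp1* held 4.96% and 22.4% of 7 listed aquaporin genes, and *Cacna1c* held 0.899% and 20.8% of 9 alpha1 genes. All of these shares are shares of RNA level, and they say nothing of channel protein.

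**Figure D2:**
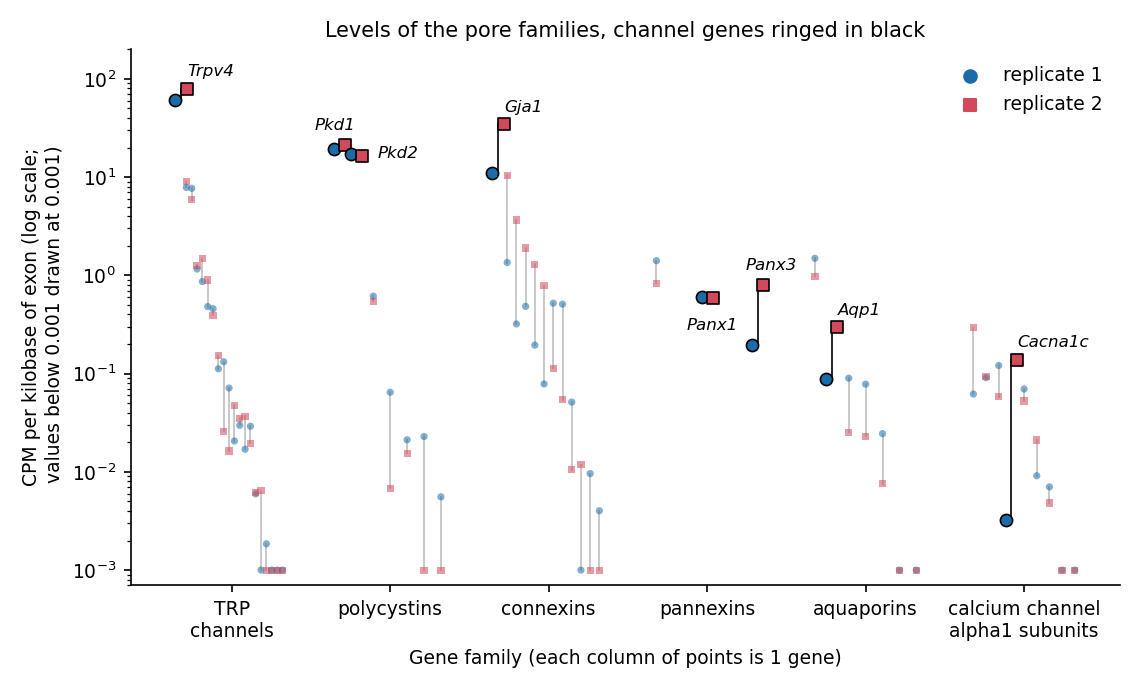
Level per kilobase of exon (log axis) of every listed gene in 6 pore families, with replicate 1 as blue circles and replicate 2 as red squares, sorted by mean within a family. The channel genes, ringed in black and named, lead the TRP channels, polycystins and connexins but not the pannexins, aquaporins or calcium channel alpha1 subunits.

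The libraries were then compared for each channel gene, as the log2 ratio of replicate 2 to replicate 1 (pseudocount of 0.1 CPM) minus 0.30, the median of the 12631 genes whose mean reached 1 CPM. Both libraries are of 1 condition, so this ratio describes spread and not an effect. After this centring, *Piezo1* stood at 0.07, *Trpv4* at 0.06, *Pkd1* at -0.17, *Pkd2* at -0.38 and *Panx1* at -0.35. *Piezo2* stood at 0.86, *Gja1* at 1.33, *Panx3* at 1.58 and *Cacna1c* at 3.85. Of the 9 channel genes whose mean reached 1 CPM, 3 were over 2-fold higher in replicate 2, where 7.43% of all such genes were, and 0 were over 2-fold lower, where 6.06% were. *Panx3* and *Cacna1c* entered this count only through their values in replicate 2. Among genes at 1 CPM or more in both libraries, *Gja1* was the only channel gene over 2-fold apart after centring (*Piezo2*, 2.28-fold apart in CPM, was so before it), and counting error on its log2 ratio was 0.02. *Aqp1*, which fell under the limit on the mean, stood at 1.11 with a counting error of 0.52. The median of the 9 was 0.07, against 0 for all genes by construction.

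**Figure D3:**
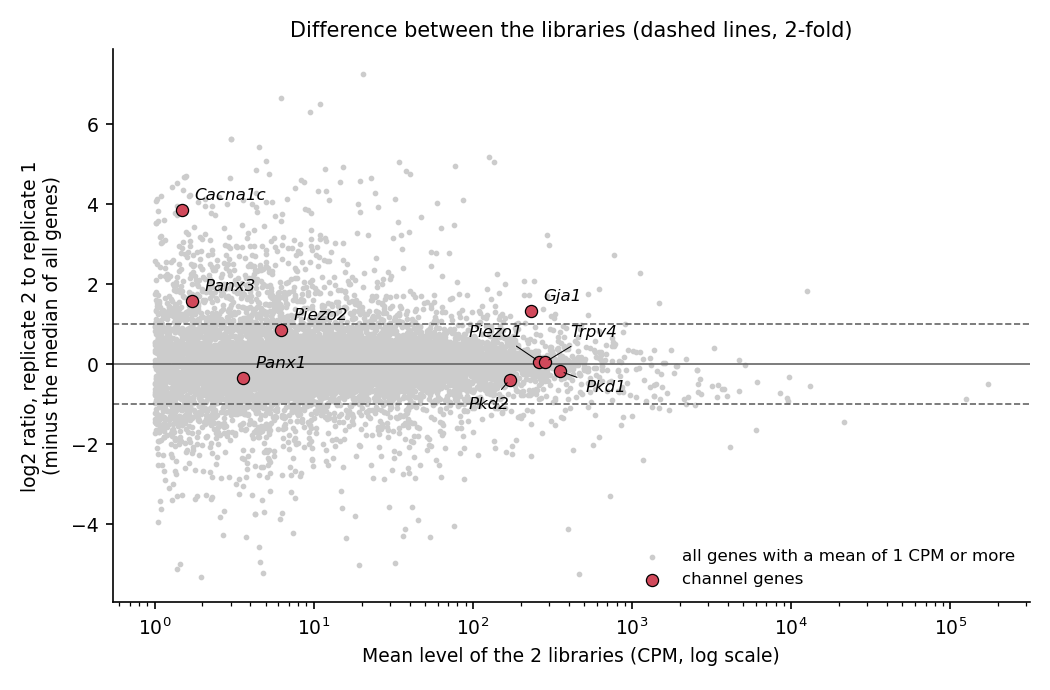
Log2 ratio of replicate 2 to replicate 1, minus the median of all genes, against the mean level in CPM (log axis) for genes whose mean reached 1 CPM (grey) and the 9 channel genes among them (red). *Piezo1*, *Trpv4*, *Pkd1*, *Pkd2* and *Panx1* lie within 2-fold of the median, as does *Piezo2*, while *Gja1*, *Panx3* and *Cacna1c* lie above the upper dashed line.

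Markers of other cartilage and bone states were set beside these values. Of the 7 hypertrophic markers whose mean reached 1 CPM, 3 were over 2-fold higher in replicate 2 after centring and 0 lower, against 7.43% and 6.06% of all genes. These were *Spp1* (4620 and 20523 CPM), *Mmp13* (8.96 and 44.8 CPM) and *Alpl* (0.462 and 1.92 CPM), of which *Alpl* entered the count only through replicate 2. *Col10a1*, the defining collagen of hypertrophic cartilage, had 1752 and 2109 CPM and stood at -0.04 after centring, *Pth1r* at -0.31 and *Ibsp* at 0.22. The log2 ratio of *Runx2* (16.2 and 39.6 CPM) was 1.29 before centring and 0.98 after it, so this gene lay within 2-fold only through the centring. The 8 listed summed to 6537 and 22859 CPM, mostly through *Spp1*, and *Ihh* was at 0 and 0.332 CPM. Of the 4 osteoblast markers whose mean reached 1 CPM, 2 were over 2-fold higher in replicate 2 and 1 lower, against 7.43% and 6.06% of all genes. The 2 higher were *Dmp1* (0.116 and 40.4 CPM) and *Sp7* (1.96 and 6.81 CPM). *Dmp1* likewise entered only through replicate 2. The other osteoblast marker past 2-fold, *Col1a1*, was lower (1166 and 583.5 CPM), and *Sost* was at 0 in both. The chondrocyte markers summed to 185285 and 128965 CPM, mostly through *Col2a1* (148953 and 100682 CPM). After centring, 2 of 9 were over 2-fold lower in replicate 2 and 0 higher, against 6.06% and 7.43% of all genes. The 2 lower were *Matn1* and *Col9a1*. The log2 ratio of *Col9a1* was -0.79 before centring and -1.09 after it, so this gene was past 2-fold through the centring. The part of these differences in the levels of *Gja1*, *Panx3* and *Cacna1c* was not tested.

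Genes that act with the channels were read from 15 lists, which hold 175 genes besides the 10. Of these, 151 were listed and 90 were at 1 CPM or more in both libraries, against 50.3% of all genes listed. Of the 100 whose mean reached 1 CPM, 17 were over 2-fold higher in replicate 2 and 13 over 2-fold lower, against 7.43% and 6.06% of all genes. Of the 7 connexins whose mean reached 1 CPM, *Gja1* included, 6 were higher and 1 lower. Most of these entered through the library in which they were higher, since 2 of the 12 listed connexin genes were at 1 CPM or more in both libraries. *Gja3*, *Gjb5* and *Gjc1* had 3.82, 3.27 and 3.94 CPM in replicate 2 and stayed below 1 CPM in replicate 1.

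The osmotic and volume response genes were present in both libraries. All 11 were at 1 CPM or more in both libraries, against 50.3% of all genes. After centring 0 were over 2-fold apart, against 13.5% of all genes whose mean reached 1 CPM. With 11 genes, this 0 is not read as a trait of the list. *Nfat5*, the transcription factor of the hypertonic response, had 387.6 and 251.3 CPM. Its known target *Slc6a6*, the taurine transporter, was the highest of the list by mean per kilobase, with 315.3 and 218.4 CPM, although *Slc38a2* exceeded it per kilobase in replicate 2. Of the volume-regulated anion channel, *Lrrc8a*, the obligatory subunit, had 51.0 and 62.7 CPM, *Lrrc8b* had 7.79 and 3.80 CPM and was over 2-fold lower after centring, and *Lrrc8e* was at or below the floor in both. Among other stretch and acid gated channels, *Tmem63a* was the highest by mean per kilobase, at 56.6 and 40.1 CPM, although *Tmem63b* exceeded it per kilobase in replicate 2, and the stretch-sensitive potassium channel gene *Kcnk2* had 1.29 and 5.69 CPM.

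Of the 15 genes that handle ATP and pyrophosphate outside cells, 9 were at 1 CPM or more in both libraries, against 50.3% of all genes. Of the 10 whose mean reached 1 CPM, 1 was over 2-fold higher in replicate 2 and 4 lower, against 7.43% and 6.06% of all genes. *Nt5e*, which makes adenosine from AMP, and *Enpp1*, which makes pyrophosphate from ATP, had 563.7 and 993.1 CPM and 306.9 and 608.9 CPM, respectively. *Ank*, which is needed for the export of pyrophosphate and ATP, had 321.1 and 1933 CPM and was the highest of the list per kilobase. Of the receptors, *P2rx4* had 26.4 and 35.4 CPM. *P2ry1*, *P2ry2* and *P2ry6* did not exceed 6.95 CPM and were each over 2-fold lower in replicate 2 after centring, but before it *P2ry1* and *P2ry2* lay within 2-fold. The other lower gene, *Adora1* (2.12 and 0.451 CPM), entered the count only through replicate 1. *Entpd1*, *Adora2b* and *Adora3* were listed at 0 in both libraries.

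Of the calcium store and calcineurin genes, 21 of 22 were at 1 CPM or more in both libraries, against 50.3% of all genes. Of the 21, 4 were over 2-fold higher in replicate 2 and 0 lower, against 7.43% and 6.06% of all genes. These 4 were *Orai2* (28.8 and 89.2 CPM), *Atp2b4* (2.19 and 6.69 CPM), *Nfatc1* (55.5 and 234.6 CPM) and *Nfatc2* (2.03 and 13.5 CPM). *Calm2*, a calmodulin gene, was the highest per kilobase at 164.3 and 228.5 CPM. All 12 primary cilium genes were at 1 CPM or more in both libraries, against 50.3% of all genes, with *Ift20* highest per kilobase at 41.0 and 53.2 CPM. After centring, 2 of the 12 were over 2-fold lower in replicate 2 and 0 higher, against 6.06% and 7.43% of all genes. The 2 lower genes were *Bbs1* and *Bbs2*, which encode subunits of the BBSome. Before centring their log2 ratios were -0.80 and -0.71, so both were past 2-fold through the centring, and with TMM factors (a trimmed mean of the ratios) *Bbs2* stood at -0.99.

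Of the 13 load and YAP response genes whose mean reached 1 CPM, 3 were over 2-fold higher in replicate 2 and 4 lower, against 7.43% and 6.06% of all genes, and 6 lay within 2-fold. The median of the list was -0.07 after centring. The 4 lower genes were the immediate early genes *Fos* (54.3 and 5.60 CPM), *Fosb* (68.6 and 4.27 CPM), *Jun* (62.1 and 20.1 CPM) and *Egr1* (112.3 and 45.7 CPM). The 3 higher genes were *Ptgs2*, which encodes COX-2 (46.5 and 539.5 CPM), and *Tead4* (2.50 and 11.0 CPM) and *Tead2* (0.254 and 8.42 CPM), which encode partners of YAP. *Yap1* itself had 49.0 and 82.5 CPM and stood at 0.45 after centring. *Ccn2*, a target of YAP, was the highest of the list per kilobase in both libraries, at 3732 and 3209 CPM.

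**Figure D4:**
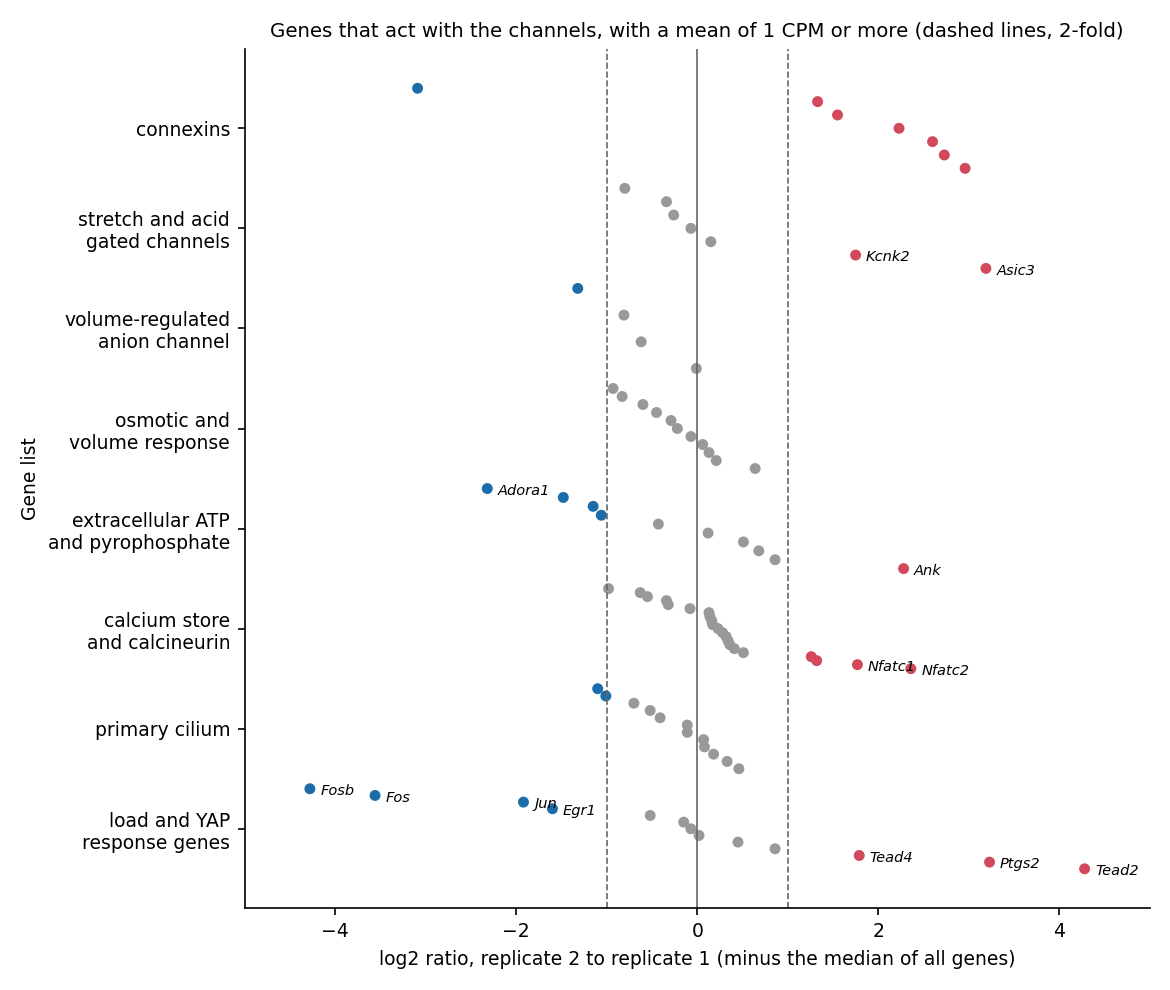
Log2 ratio of replicate 2 to replicate 1, minus the median of all genes, for genes whose mean reached 1 CPM in 8 lists, with those over 2-fold higher in replicate 2 in red, over 2-fold lower in blue and the rest in grey. The osmotic and volume response genes lie within 2-fold, where 13.5% of all genes whose mean reached 1 CPM do not. *Fos*, *Fosb*, *Jun* and *Egr1* lie to the left and most connexins to the right.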

How the data were processed

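Expression was analysed in 2 chondrosphere libraries. From poly(A) RNA the authors made stranded libraries and sequenced them as single-end reads. Per the submitters' notes, reads were aligned to GRCm38 with STAR 2.7.3a and processed in Partek 10.0.21.0801, which assigned them to genes of GENCODE M25. The deposited values are CPM, made by the authors by dividing by the total over genes, and an offset of 0.0001 in every value was subtracted here. Of the low values (under 50 steps), 63.3% in replicate 1 and 62.2% in replicate 2 were within 0.02 of a whole multiple of the smallest step, too few to restore counts for all genes, and no count model was fitted across genes. Read numbers given are CPM divided by that step.

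Mean and SD (n = 2), ranks, and log2 ratios between libraries (pseudocount of 0.1 CPM, centred on the median of genes whose mean reached 1 CPM) were computed. A fold on this scale understates differences of low genes. Log2 ratios and folds between 2 genes per kilobase used the same pseudocount. Folds of a single gene between the libraries, given beside its CPM, hold no pseudocount. Lengths and coordinates came from GENCODE M21 (GRCm38), in which 97.2% of names matched 1 gene, and upstream sequences came from RefSeq (GRCm38.p6). The genes, lists and marker lists were chosen with earlier results of these data known. Named genes were the 10 channel genes, the highest gene per kilobase of each list, list genes at 1 CPM or more in both libraries and over 2-fold apart, and genes of the pore families at 1 CPM or more in both. Other genes (*Ctu2*, *Tsc2*, *Mdfic*, *Nfat5*, *P2rx4*, *Adora1*, *Nt5e*, *Enpp1*, *Slc38a2*, *Tmem63b*, *Cacna1b*, *Cacna1h*, *Tead2*, *Yap1*, connexins below 1 CPM in a library, genes at 0 and markers) were named after their values were seen. Some genes that the rule names are not reported here. No gene was named for likeness of pattern, since 2 libraries rank no pattern. The calculation of the ratio was run on simulated counts with planted changes and counting error alone. That run held no spread between libraries, so it checks the calculation and says nothing of that spread. Python 3.11.15, numpy 2.4.6, pandas 2.3.3 and matplotlib 3.10.9 were used. Alternatives covered scaling, pseudocount, filter, length and leaving out each library.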

Additional observations from a re-analysis of the deposited data

How the results depend on the processing

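For 25 results, 114 values were recomputed by changing 1 choice at a time. The shift was within the SD between libraries (or within 1.5 times for a count) for 90, beyond it for 22 and a change of sign for 2, but 43 of the 90 come from leaving 1 of 2 libraries out of a mean, which cannot move it by 1 SD. The cause of the other changes was not tested unless the alternative itself shows it. Without length, the mean log2 ratio was 5.47 for *Piezo1* to *Piezo2*, 1.05 for *Pkd1* to *Pkd2*, 7.07 for *Gja1* to *Panx3* and 0.12 for *Trpv4* to *Piezo1*. The share was then 61.4% for *Trpv4* among TRP channels, 99.3% for *Pkd1* and *Pkd2* among polycystins and 91.8% for *Gja1* among connexins. With the longest coding transcript, the log2 ratio of *Pkd1* to *Pkd2* reversed to -0.39, *Gja1* to *Panx3* was 6.74, *Trpv4* to *Piezo1* was 1.47, and the shares of *Trpv4* and *Gja1* were 66.0% and 87.7%. A pseudocount of 1 CPM gave 4.75 for *Gja1* to *Panx3*. The log2 ratio of *Panx3* to *Panx1* ranged from -1.47 to 0.46 when 1 library was left out, and was -0.50 with both. The median level of the 10 genes, taken in each library and averaged over the 2 libraries, was 73.0 CPM as reported. When the total excluded the 10 highest genes, it was 118.2 CPM. The count over 2-fold apart was 3 as reported (13.5% of all genes), 5 with no filter on low values (18.3%), 1 when the mean had to reach 10 CPM (7.1%), 4 without centring (15.1%) and 2 with a pseudocount of 1 CPM (9.72%). At a level 2 times the high level of 100 CPM, chosen after seeing the data, the count in both libraries was 3. No paired analysis was possible because the 2 libraries form 1 group.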
